A study of Homo sapiens with 12 samples.

Results

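The genes of the lysosome and of autophagy were followed in RNA-seq of C4.2B cells, a human line of castration-resistant prostate cancer, treated with inhibitors of the kinase AKT and of the histone methyltransferase EZH2. The 42 members were taken by gene name from a list of lysosomal and autophagy genes. Each had 1 row among the 58735 genes of the count table, and all 42 were among the 16646 genes with enough counts to test. The study compared 4 arms of 3 libraries each. DMSO cells received vehicle. AKTi cells received 0.25 µM ipatasertib, EZH2i cells received 1 µM tazemetostat, and combination cells received both. Tazemetostat was also given for 6 days beforehand, ipatasertib for 24 hours only, and all cells, controls included, spent those last 24 hours in charcoal-stripped serum, which lacks androgens. The 3 libraries of an arm came from plates of 1 cell line seeded in parallel, so the p-values below measure the spread between such plates, and the effects of the 2 agents also differ in exposure time.

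The libraries held 14133755 to 22276417 counts. Prostate luminal markers were high in every arm, with a summed level over 8 genes of 2851 TPM (a transcript level scaled for gene length and library size) in DMSO, 4373 with AKTi, 5141 with EZH2i and 6796 with both agents. KLK3, which encodes the prostate-specific antigen, made up much of this sum, with mean levels of 970 TPM in DMSO and 3210 TPM in the combination. Of the 8 genes, 7 were called higher in the combination against DMSO, and HOXB13 fell by 0.53 (SE 0.056). Basal epithelial markers summed to at most 0.543 TPM in any library and leukocyte and macrophage markers to at most 1.34 TPM. Stromal markers summed to at most 7.86 TPM, and among them COL1A1 rose by 1.59 (SE 0.17) with EZH2i and 1.10 (SE 0.17) in the combination. COL3A1 rose by 1.29 (SE 0.43) with EZH2i and was not called in the combination (0.63). PDGFRB had the opposite sign in these arms and was not called (-0.72 and -0.61). DCN had a mean of at most 2.41 normalized counts in any arm. The part of the luminal markers in the results below was not tested.

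Lysosomes are acidified compartments in which hydrolases break down cargo delivered by endocytosis or by autophagy. In autophagy, the ULK1 kinase complex starts a membrane that is decorated with lipid-bound ATG8 proteins, takes up cargo bound by receptors such as SQSTM1, and fuses with the lysosome. The transcription factors TFEB, TFE3 and MITF activate many of these genes through a short palindromic promoter motif, the CLEAR element. Growth factor signaling through AKT and mTORC1 keeps TFEB and TFE3 in the cytoplasm by phosphorylation. EZH2 is the catalytic subunit of the PRC2 complex, which places the repressive mark H3K27me3 on chromatin.

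Promoter sequence (250 bases before to 50 after the start of transcription, RefSeq, GRCh38.p14) was at hand for 31 of the 42 members. The CLEAR core TCACGTGA, which reads alike on both strands and contains the E-box CACGTG, was found in 5 of these 31 promoters (16.13%) and in 1.03% of the 27167 promoters of the reference. The E-box CACGTG, whatever its flanking bases, was found in 9 of 31 (29.03%) against 7.4%. The related M-box TCATGTGA, searched on both strands, was found in 2 of 31 (6.45%) against 1.02%, those of GRN and TPP1. The forkhead core TGTTTAC, the motif of the FOXO factors that AKT phosphorylates, was found in 1 of 31 (3.23%), that of CTSL, against 3.41%. These letter matches describe the promoters and are no measure of binding. The 90 bases before the start are shown, 5′ to 3′ on the strand of the gene, for the 5 promoters with the CLEAR core, since these genes went different ways below. The capitals mark each core that lies whole within the stretch. A further core of LAMP1 begins 2 bases before the start and runs past it, so it is cut off here and not capitalized. The stretches lie at chr13:113297149-113297238 (+) for LAMP1, chr17:80101491-80101580 (+) for GAA, chr20:45891245-45891334 (+) for CTSA, chr19:7522534-7522623 (+) for MCOLN1 and chr16:67481158-67481247 (-) for ATP6V0D1.
LAMP1: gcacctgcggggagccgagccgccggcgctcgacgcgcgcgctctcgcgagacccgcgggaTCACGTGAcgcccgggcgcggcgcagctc
GAA: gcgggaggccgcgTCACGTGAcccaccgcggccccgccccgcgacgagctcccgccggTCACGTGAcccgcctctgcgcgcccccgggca
CTSA: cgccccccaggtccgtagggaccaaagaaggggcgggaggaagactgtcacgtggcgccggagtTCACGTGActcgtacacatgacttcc
MCOLN1: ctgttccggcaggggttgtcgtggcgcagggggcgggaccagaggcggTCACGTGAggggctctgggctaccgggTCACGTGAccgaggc
ATP6V0D1: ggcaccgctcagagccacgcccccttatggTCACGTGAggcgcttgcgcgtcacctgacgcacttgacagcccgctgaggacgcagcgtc
Against DMSO, LAMP1, GAA and CTSA rose in the combination, MCOLN1 fell, and ATP6V0D1 did not pass the test.

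The combined level of the lysosome and autophagy genes was higher in every treated arm than in DMSO. Summed over the 42 members it was 3219 ± 98.8 TPM in DMSO (SD, n = 3), 3942 ± 52.3 with AKTi, 5351 ± 162 with EZH2i and 6340 ± 25.7 with both agents. PSAP, which encodes the precursor of the saposins that help hydrolases reach their lipids, had the highest level of any member in DMSO, 784 TPM, and the melanocyte and lysosome factor MITF had the lowest, 3.84 TPM. PSAP made up 24.3% of the sum in DMSO and 33.6% in the combination. Without PSAP the sum still stood at 2435 TPM in DMSO, 2847 with AKTi, 3713 with EZH2i and 4210 with both agents. TPM follows the total of each library, unlike the scaling used in the tests below, so these rises are not on the same scale. ATP6V0D1, for instance, had 60.7 TPM in DMSO and 65.4 in the combination, while its mean normalized counts were 2482 and 2289. In bulk RNA, more transcripts per cell and a larger share of cells with them cannot be told apart.

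Most members passed the test in each treated arm, and most of those were higher. A gene is called here when its adjusted p in edgeR's quasi-likelihood test, corrected over all 16646 genes, is under 0.05. With AKTi, 21 of 42 members were higher, against 20.6% of all tested genes, and 4 were lower, against 21.9%. With EZH2i, 33 were higher, against 32.6% of all genes, and 5 were lower, against 31.5%. In the combination 29 were higher, against 38.0%, and 6 were lower, against 35.2%. The median log2 fold change of the members was 0.17 with AKTi, 0.39 with EZH2i and 0.54 in the combination, while the medians of all tested genes were 0.0070, 0.030 and 0.062. These 3 comparisons share the DMSO libraries. Scaled by total count alone, the median of all genes in the combination was 0.26 and that of the members 0.74, with 35 members higher and 4 lower. For 11 members the 4 arms did not overlap and stood in the order DMSO, AKTi, EZH2i, combination from lowest to highest. They were LAMP1, CTSB, CTSD, CTSZ, TPP1, PSAP, GRN, MAP1LC3B, GABARAPL1, SQSTM1 and BNIP3L. No member had the reverse order without overlap. The share of all tested genes in either order was not counted, so these counts describe the members only.

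**Figure D1:**
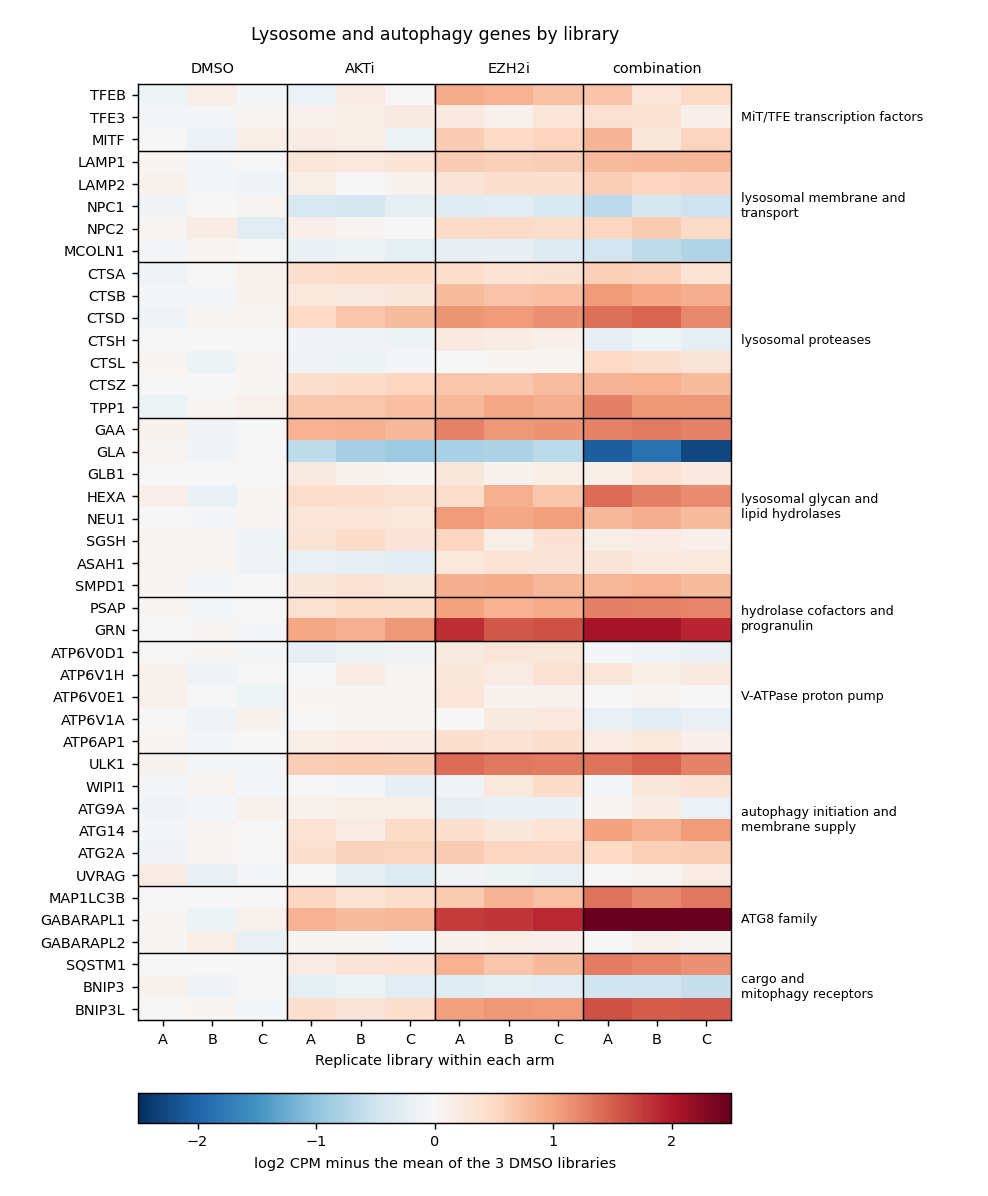
Heatmap of log2 CPM (counts scaled to library size) of the 42 members in the 12 libraries, as the difference from the mean of the 3 DMSO libraries, with rows grouped by role and columns by arm. GABARAPL1 and GRN are the rows that rise the most in the combination, with log2 fold changes of 2.52 and 2.01, and GLA is the row that falls the most, with -2.07.

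The transcription factors TFEB, TFE3 and MITF were higher in the combination, and none of them was called with AKTi alone (0.032, 0.17 and 0.066 on the log2 scale). TFE3 was called with AKTi under 4 other settings, scaling by total count among them (lowest adjusted p = 0.010), and without DMSO library C or combination library C. Normalized counts (counts divided by the size factor of each library) of TFEB were 140.0, 165 and 148 in DMSO, 134, 173 and 151 with AKTi, 286, 275 and 251 with EZH2i and 247, 184 and 208 with both agents. The EZH2i and combination libraries were all above the DMSO libraries, while the AKTi libraries overlapped the latter. TFEB rose by 0.85 (SE 0.13) on the log2 scale with EZH2i and by 0.52 (SE 0.13) in the combination (adjusted p = 5e-07 and 0.00062), and it fell by 0.33 (SE 0.12) from EZH2i to the combination (adjusted p = 0.029). That fall was lost without EZH2i library A or B, without combination library B or C, and when libraries were scaled by total count or upper quartile. Normalized counts of TFE3 were 960.4, 953 and 1054 in DMSO, 1053, 1101 and 1156 with AKTi, 1162, 1065 and 1208 with EZH2i and 1269, 1266 and 1055 with both agents. TFE3 rose by 0.22 (SE 0.071) with EZH2i and by 0.29 (SE 0.071) in the combination, with libraries that lay just above the DMSO libraries and overlapped the AKTi libraries, and the EZH2i call was lost without DMSO library B or EZH2i library C (highest adjusted p = 0.15). Normalized counts of MITF, the melanocyte master factor that is also expressed at low level elsewhere, were 135, 122 and 155 in DMSO, 154, 153 and 124 with AKTi, 212, 193 and 201 with EZH2i and 246, 164 and 198 with both agents. All EZH2i and combination libraries lay above the DMSO libraries, and the rise was 0.56 (SE 0.14) with EZH2i and 0.58 (SE 0.14) in the combination (adjusted p = 0.00091 and 0.00053). Melanocyte markers summed to between 2.87 and 13.1 TPM over 4 genes. PMEL rose by 1.18 (SE 0.17) with EZH2i and 1.16 (SE 0.17) in the combination, and MLANA by 1.30 (SE 0.53) and 2.47 (SE 0.49), while TYR, the enzyme that defines pigment synthesis, had 0 counts in all 12. MLANA had a mean of 7.29 normalized counts in DMSO, and DCT had a mean of at most 1.44 in any arm. From EZH2i to the combination MLANA rose by 1.18 (SE 0.43), while PMEL (-0.019) and MITF (0.017) were not called. The part of these markers in the result was not tested.

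Among the lysosomal membrane and transport genes the glycoproteins LAMP1 and LAMP2, which line the inside of the membrane, and the soluble cholesterol carrier NPC2 rose, while the cholesterol exporter NPC1 and the calcium channel MCOLN1 fell. LAMP1 rose by 0.30 (SE 0.052) with AKTi, 0.61 (SE 0.051) with EZH2i and 0.81 (SE 0.051) in the combination on the log2 scale. LAMP2 and NPC2 were not called with AKTi (0.078 and 0.059) and reached 0.57 and 0.56 in the combination. Normalized counts of NPC1 were 1376, 1469 and 1549 in DMSO, 1115, 1095 and 1225 with AKTi, 1183, 1196 and 1117 with EZH2i and 919.7, 1072 and 999.8 with both agents. All treated libraries were below the DMSO libraries, and NPC1 fell by 0.35 (SE 0.068), 0.32 (SE 0.067) and 0.54 (SE 0.067) in AKTi, EZH2i and the combination (adjusted p = 6.3e-09 in the last). NPC1 and NPC2, which both handle cholesterol, had opposite signs in the combination. Normalized counts of MCOLN1 were 394, 424 and 411 in DMSO, 363, 371 and 344 with AKTi, 354, 353 and 325 with EZH2i and 290.4, 258 and 238 with both agents. All treated libraries were below the DMSO libraries, the combination lowest, and MCOLN1 fell by 0.62 (SE 0.098) there (adjusted p = 6.5e-07). With AKTi it was not called (-0.18, adjusted p = 0.14). Its fall of 0.24 (SE 0.096) with EZH2i was lost without EZH2i library C and under both other scalings named above.

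The lysosomal proteases rose in 6 of 7 cases in the combination, where 38.0% of all tested genes were higher. CTSD and CTSB, the main aspartic and cysteine cathepsins, rose by 1.35 (SE 0.069) and 0.99 (SE 0.056). The tripeptidyl peptidase TPP1 rose by 1.14 (SE 0.068), the carboxypeptidases CTSZ and CTSA by 0.84 (SE 0.058) and 0.50 (SE 0.078), and the cysteine cathepsin CTSL by 0.41 (SE 0.066). CTSB, CTSD, CTSZ, TPP1 and CTSA were also higher with either agent alone. CTSL was different. Its normalized counts were 1016, 896 and 1034 in DMSO, 916, 897 and 955 with AKTi, 982, 989.7 and 1012 with EZH2i and 1370.0, 1292 and 1207 with both agents. Neither single arm was called (-0.083 with AKTi and 0.026 with EZH2i, the latter up to 0.17 and called when libraries were scaled by total count or upper quartile), and only the combination libraries lay above all DMSO libraries (adjusted p = 9.5e-07). The aminopeptidase CTSH was the exception, at 0.18 with EZH2i and -0.18 in the combination, both called. The first call was lost without DMSO library B, AKTi library B or EZH2i library A, and the second turned to 0.02 and 0.01 when libraries were scaled by total count or upper quartile.

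Of the 8 hydrolases of glycans and lipids, 6 rose in the combination and 1, GLA, fell, against 38.0% and 35.2% of all tested genes. Normalized counts of GAA, which frees glucose from glycogen, were 969, 866 and 928 in DMSO, 1669, 1694 and 1602 with AKTi, 2153, 1934 and 1997 with EZH2i and 2171, 2232 and 2153 with both agents. Every treated library was above every DMSO library, with rises of 0.85 (SE 0.062), 1.15 (SE 0.061) and 1.27 (SE 0.061) in AKTi, EZH2i and the combination (adjusted p = 3.4e-20 in the last). HEXA, a subunit of the hexosaminidase that degrades gangliosides, rose by 1.28 (SE 0.095), and the sialidase NEU1 and the sphingomyelinase SMPD1 rose by 0.83 (SE 0.061) and 0.83 (SE 0.063). The galactosidase GLB1 rose by 0.24 in the combination. Its call with EZH2i (0.18) was lost without any one of 8 libraries, namely any DMSO or AKTi library and EZH2i library A or C. SGSH, a sulfatase of heparan sulfate, was higher with each agent (0.38 and 0.36) and not called in the combination (0.16), where it was called under 3 other settings, both other scalings among them (up to 0.36).

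GLA, the galactosidase that clears globotriaosylceramide, went the other way. Its normalized counts were 527, 474 and 506 in DMSO, 317, 282 and 266 with AKTi, 282, 292 and 313 with EZH2i and 118, 135 and 99.8 with both agents. The combination libraries were the lowest, the single-agent libraries lay between and overlapped each other, and the DMSO libraries were the highest. The gene fell by 0.79 (SE 0.11) with AKTi, 0.75 (SE 0.10) with EZH2i and 2.07 (SE 0.11) in the combination on the log2 scale (adjusted p = 1.2e-07, 6.6e-08 and 2e-18). Normalized counts of ASAH1, the acid ceramidase, were 3677, 3605 and 3400.2 in DMSO, 3080.0, 3088 and 2929 with AKTi, 4232, 4460.5 and 4449 with EZH2i and 4387, 4139 and 4197 with both agents. It fell by 0.22 (SE 0.054) with AKTi (adjusted p = 0.00092) and rose by 0.31 (SE 0.053) with EZH2i and by 0.27 (SE 0.053) in the combination (adjusted p = 3.6e-06 and 2.1e-05).

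PSAP and GRN, both precursors that are cleaved in the lysosome, rose at every step from DMSO to the combination. Normalized counts of GRN, which encodes progranulin, a regulator of lysosomal hydrolases, were 945, 959.7 and 924 in DMSO, 1828, 1736 and 1993 with AKTi, 3359, 2750.2 and 2820.4 with EZH2i and 3897, 3869.6 and 3459.5 with both agents. No arm overlapped another. GRN rose by 0.99 (SE 0.071) with AKTi, 1.67 (SE 0.070) with EZH2i and 2.01 (SE 0.070) in the combination (adjusted p = 6.7e-14, 1.9e-21 and 1.6e-24). PSAP rose by 0.44 (SE 0.051), 0.94 (SE 0.051) and 1.24 (SE 0.051) in the same arms.

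**Figure D2:**
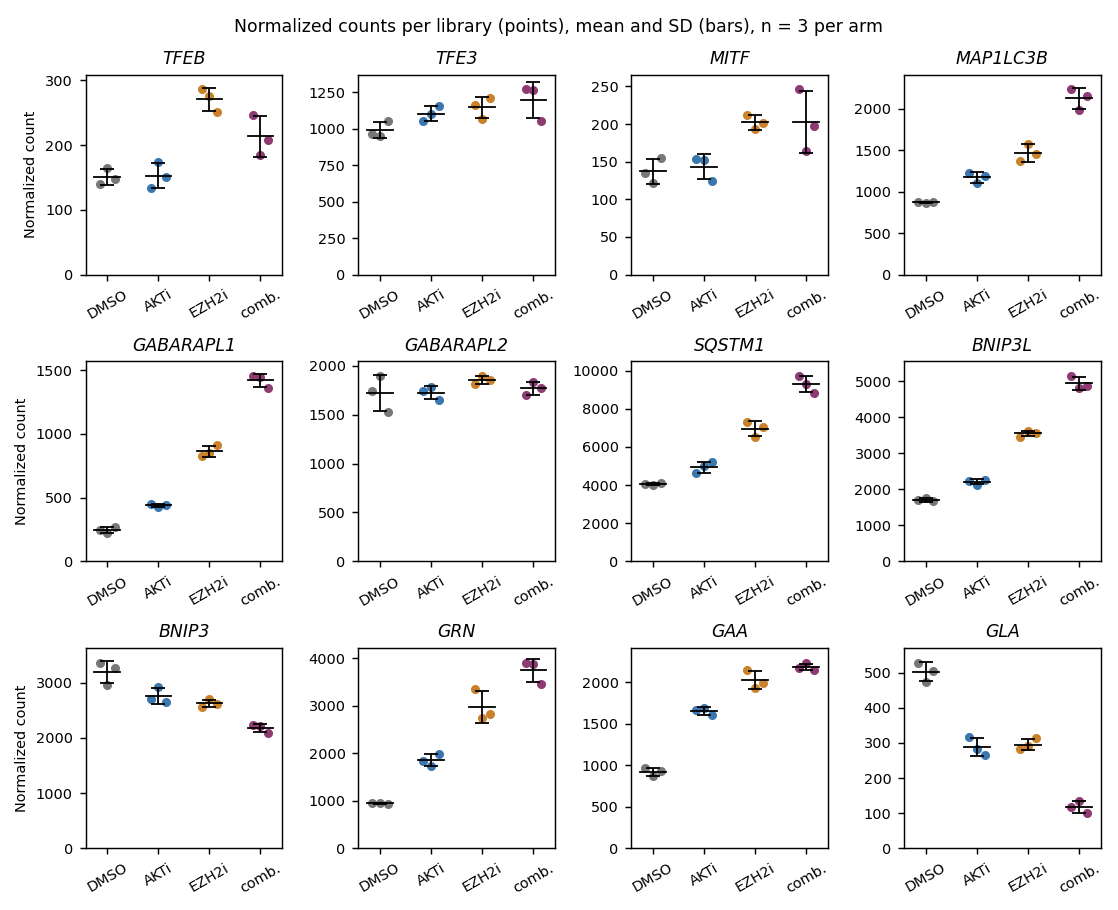
Normalized counts (y axes from 0) of 12 members in the 3 libraries of each arm (points), with the mean and SD as bars; comb. is the combination. GABARAPL1, MAP1LC3B, SQSTM1, BNIP3L and GRN step up from arm to arm, GLA and BNIP3 are lowest in the combination, and the treated arms of GABARAPL2 overlap DMSO.

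The V-ATPase is the proton pump that acidifies the lysosome. Its 5 members (ATP6V0D1, ATP6V1H, ATP6V0E1, ATP6V1A and the accessory subunit ATP6AP1) were called higher with EZH2i, by 0.16 to 0.39 on the log2 scale. The share of all tested genes called higher with EZH2i was 32.6%. In the combination ATP6V1H and ATP6AP1 were higher (0.23 and 0.19), ATP6V1A was lower (-0.22), and ATP6V0D1 and ATP6V0E1 were not called (-0.10 and 0.03). ATP6V0E1 was called when libraries were scaled by total count or upper quartile (up to 0.23), and ATP6V0D1 without any one AKTi library or EZH2i library A (lowest adjusted p = 0.011), while across the other settings it ranged from -0.13 to 0.10. Of 14 other V-ATPase subunits tested, 5 were higher and 4 lower with EZH2i, against 32.6% and 31.5% of all tested genes. From EZH2i to the combination, 2 of these 14 were higher and 6 lower. Of the 5 members, none was higher in that step and 3 were lower, against 21.1% and 25.7% of all tested genes. The 3 members changed by -0.37 (SE 0.056) for ATP6V0D1, -0.38 (SE 0.060) for ATP6V1A and -0.20 (SE 0.053) for ATP6AP1. Several of these small calls rested on single libraries. The EZH2i call of ATP6V0E1 was lost without DMSO library B or C, AKTi library B or C, or EZH2i library A, and that of ATP6V1A without DMSO library A or B, any AKTi library, or EZH2i library B or C. The combination calls of ATP6V1H and ATP6AP1 were lost without DMSO library B (adjusted p = 0.088 and 0.068), that of ATP6V1A when libraries were scaled by total count or upper quartile, and the AKTi call of ATP6AP1 (0.18) without DMSO library B or AKTi library B or C.

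Genes that start the autophagosome and supply its membrane rose in 3 of 6 cases in the combination. This share of 50% lay near the 38.0% of all tested genes. Normalized counts of ULK1, the kinase that starts autophagy, were 773, 712 and 714 in DMSO, 1108, 1146 and 1128 with AKTi, 1928, 1811 and 1789 with EZH2i and 1862, 1999 and 1706 with both agents. Every treated library was above the DMSO libraries, while EZH2i and combination libraries overlapped. ULK1 rose by 0.63 (SE 0.068) with AKTi, 1.34 (SE 0.066) with EZH2i and 1.36 (SE 0.066) in the combination (adjusted p = 3.7e-20 in the last). ATG14, which directs the lipid kinase complex of autophagy, rose by 0.35 (SE 0.10), 0.35 (SE 0.098) and 1.00 (SE 0.095), and its call with AKTi was lost without AKTi library C (adjusted p = 0.078). The lipid transfer protein ATG2A rose by 0.52, 0.57 and 0.57 in the 3 arms. WIPI1, a phosphoinositide binding protein, was not called in any treated arm against DMSO (-0.072, 0.24 and 0.21), though with EZH2i it was called without EZH2i library A, in the combination without combination library A, and in both under the other scalings. ATG9A, the membrane scramblase of the seed vesicles, was called lower with EZH2i (-0.18), a call lost without DMSO library C or EZH2i library B and under 4 other settings, among them scaling by total count. Normalized counts of UVRAG, a partner of the same lipid kinase, were 410.2, 316 and 353 in DMSO, 357, 306 and 279 with AKTi, 338, 323 and 314 with EZH2i and 359, 361 and 402 with both agents. Its values of -0.19, -0.14 and 0.074 against DMSO were not called, but the first and the second were called without DMSO library B (adjusted p = 0.049 and 0.044) and the third under the other scalings (up to 0.27).

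The ATG8 family split into 2 genes that rose and 1 that was not called. Normalized counts of GABARAPL1 were 250.5, 226 and 269.6 in DMSO, 451, 430.3 and 440.3 with AKTi, 825, 850.4 and 911 with EZH2i and 1452, 1445 and 1362 with both agents. No arm overlapped another, and the combination stood above each single agent. GABARAPL1 rose by 0.83 (SE 0.086), 1.80 (SE 0.080) and 2.52 (SE 0.079) on the log2 scale in AKTi, EZH2i and the combination (adjusted p = 5e-10, 1e-20 and 5e-26). Normalized counts of MAP1LC3B, which encodes the LC3 protein used to trace autophagosomes, were 878, 870.1 and 874 in DMSO, 1232, 1103 and 1187 with AKTi, 1371, 1578 and 1452 with EZH2i and 2236, 1990.3 and 2157 with both agents. It rose by 0.44 (SE 0.068), 0.76 (SE 0.066) and 1.30 (SE 0.065) (adjusted p = 1.7e-06, 1.5e-12 and 9.4e-20), again with no overlap between arms. Normalized counts of GABARAPL2 were 1740.4, 1891 and 1530.1 in DMSO, 1739, 1777 and 1651 with AKTi, 1807, 1891 and 1851 with EZH2i and 1697, 1827 and 1774 with both agents. Every treated arm overlapped DMSO, while the EZH2i libraries all lay above the AKTi libraries. Its log2 fold changes against DMSO of 0.015 (SE 0.066), 0.12 (SE 0.065) and 0.061 (SE 0.065) were not called (adjusted p = 0.88, 0.11 and 0.41). When libraries were scaled by total count or upper quartile, GABARAPL2 was called higher with EZH2i (up to 0.26) and in the combination (up to 0.26), and with EZH2i also when 10 counts were required in every library.

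Of the receptors that tie cargo to ATG8 proteins, SQSTM1 and BNIP3L rose and BNIP3 fell. Normalized counts of SQSTM1, the receptor of ubiquitinated cargo also known as p62, were 4070.3, 3983 and 4098 in DMSO, 4631, 5015 and 5188 with AKTi, 7296, 6539 and 7038 with EZH2i and 9708, 9325 and 8841 with both agents. It rose by 0.30 (SE 0.055), 0.79 (SE 0.055) and 1.22 (SE 0.055) in AKTi, EZH2i and the combination (adjusted p = 3.1e-05, 3.4e-15 and 4.4e-21). BNIP3 and BNIP3L are paralogs on the outer membrane of mitochondria that recruit the autophagy machinery to them, and they moved in opposite directions. Normalized counts of BNIP3L were 1701, 1770.0 and 1668 in DMSO, 2239, 2128 and 2266 with AKTi, 3462, 3609 and 3574 with EZH2i and 5135, 4796 and 4871 with both agents. Those of BNIP3 were 3354, 2964 and 3259 in DMSO, 2701, 2927 and 2655 with AKTi, 2560.1, 2700.0 and 2609 with EZH2i and 2234, 2213 and 2094 with both agents. BNIP3L rose by 0.38 (SE 0.056), 1.06 (SE 0.055) and 1.55 (SE 0.055), and BNIP3 fell by 0.20 (SE 0.057), 0.27 (SE 0.056) and 0.53 (SE 0.057) (adjusted p = 2.2e-24 and 1.6e-10 in the combination). For both genes every treated library lay outside the range of the DMSO libraries.

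The 2 agents were also compared with each other and with the combination. From AKTi to the combination, 25 members were higher, against 32.1% of all tested genes, and 6 were lower, against 32.1%. From EZH2i to the combination, 15 were higher, against 21.1%, and 10 were lower, against 25.7%. Scaled by total count alone, these splits were 33 and 3 from AKTi, and 18 and 7 from EZH2i. EZH2i exceeded AKTi for 25 members, against 25.4%, and was below it for 1, ATG9A, against 25.1%. The median changes were 0.43, 0.067 and 0.27 on the log2 scale. The members that gained the most when AKTi was added to EZH2i were GABARAPL1 (0.73, SE 0.069), ATG14 (0.64, SE 0.092), HEXA (0.59, SE 0.090) and MAP1LC3B (0.55, SE 0.062), and GLA fell by 1.32 (SE 0.12). Of the 21 members called higher with AKTi alone, 12 were higher in that step, 2 were lower (NEU1 and ATP6AP1) and 7 were not called (CTSA, CTSZ, GAA, SGSH, ULK1, ATG2A and SMPD1), with 0.021, SE 0.062 for ULK1. This split was not counted among all tested genes called higher with AKTi, so it describes the members only.

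Whether the effect of AKTi differed with EZH2i present was tested by the interaction, the log2 change from EZH2i to the combination minus that from DMSO to AKTi. It was negative for 16 members, against 17.5% of all tested genes, and positive for 2, against 10.7%. The remaining 24 were not called, among them GABARAPL1 (-0.10, SE 0.11), MAP1LC3B (0.11, SE 0.092), SQSTM1 (0.13, SE 0.077) and BNIP3L (0.11, SE 0.076). The most negative values were those of GAA (-0.74, SE 0.085), GRN (-0.64, SE 0.096) and ULK1 (-0.61, SE 0.092), with adjusted p = 1.5e-08, 2.1e-06 and 2.4e-06. GAA thus rose by 0.85 with AKTi alone and differed by 0.12 from EZH2i to the combination. Of the 16 with a negative interaction, 11 were still higher in the combination than in DMSO, 3 were higher in the combination than in EZH2i (CTSD, TPP1 and GRN) and 6 were lower. Among all tested genes with a negative interaction this split was not counted. GLA was among the 16, since its fall was larger with EZH2i present (-0.53, SE 0.16, adjusted p = 0.011), a call lost without combination library C (adjusted p = 0.050). The positive values were those of CTSL (0.47, SE 0.095, adjusted p = 0.00022) and UVRAG (0.40, SE 0.15, adjusted p = 0.044). The latter was lost without any one of 9 libraries (DMSO A or C, AKTi B or C, any EZH2i, and combination B or C), with a highest adjusted p of 0.18.

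**Figure D3:**
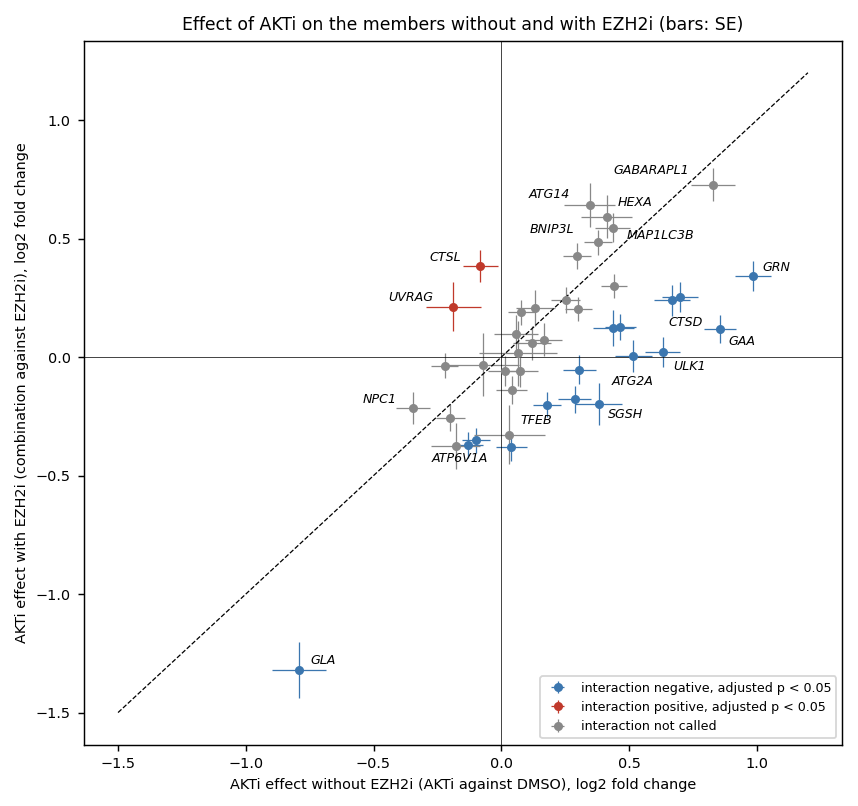
Log2 fold change of AKTi against DMSO (x axis) and of the combination against EZH2i (y axis) for the 42 members, each with its SE, in separate libraries on the 2 axes; the dashed line marks equal effects. Blue points (16 members, interaction negative) lie below the line, with GAA at 0.85 and 0.12, and red points (CTSL and UVRAG, interaction positive) lie above it.

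The other genes of the pathway, 147 listed by role and 139 of them tested, were also called higher more often than lower in each treated arm. With AKTi 52 were higher (37.4%) and 25 lower (18%), against 20.6% and 21.9% of all tested genes. With EZH2i 74 (53.2%) and 31 (22.3%) were, against 32.6% and 31.5%. In the combination 76 (54.7%) and 37 (26.6%) were, against 38.0% and 35.2%, and their median there was 0.27 on the log2 scale. In the combination, other lysosomal hydrolases were higher in 22 and lower in 6 of 30, other cargo and mitophagy receptors in 11 and 2 of 13, and genes of autophagosome and lysosome fusion in 7 and 0 of 14. Other V-ATPase subunits were higher in 4 and lower in 6 of 14, other core autophagy genes in 10 and 12 of 25, and mannose 6-phosphate sorting genes in 3 and 4 of 9, shares of 28.6% and 42.9%, 40% and 48%, and 33.3% and 44.4% that lay nearer to those of all tested genes. Among the largest rises were those of the cargo receptor OPTN and the cathepsin CTSO. Normalized counts of OPTN were 20.8, 22.7 and 20.6 in DMSO, 49.0, 33.0 and 42.9 with AKTi, 285, 294 and 305 with EZH2i and 718, 612 and 599.7 with both agents. The combination was the highest arm, and OPTN rose by 4.93 (SE 0.15) (adjusted p = 3.7e-26). CTSO rose by 3.11 (SE 0.16) from mean normalized counts in DMSO of 42.4 ± 11.2 (SD, n = 3). The 3 largest falls were those of the dipeptidyl peptidase CTSC, the V-ATPase subunit ATP6V0B and the autophagy membrane protein VMP1, by 2.06 (SE 0.091), 1.10 (SE 0.072) and 1.09 (SE 0.066).

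**Figure D4:**
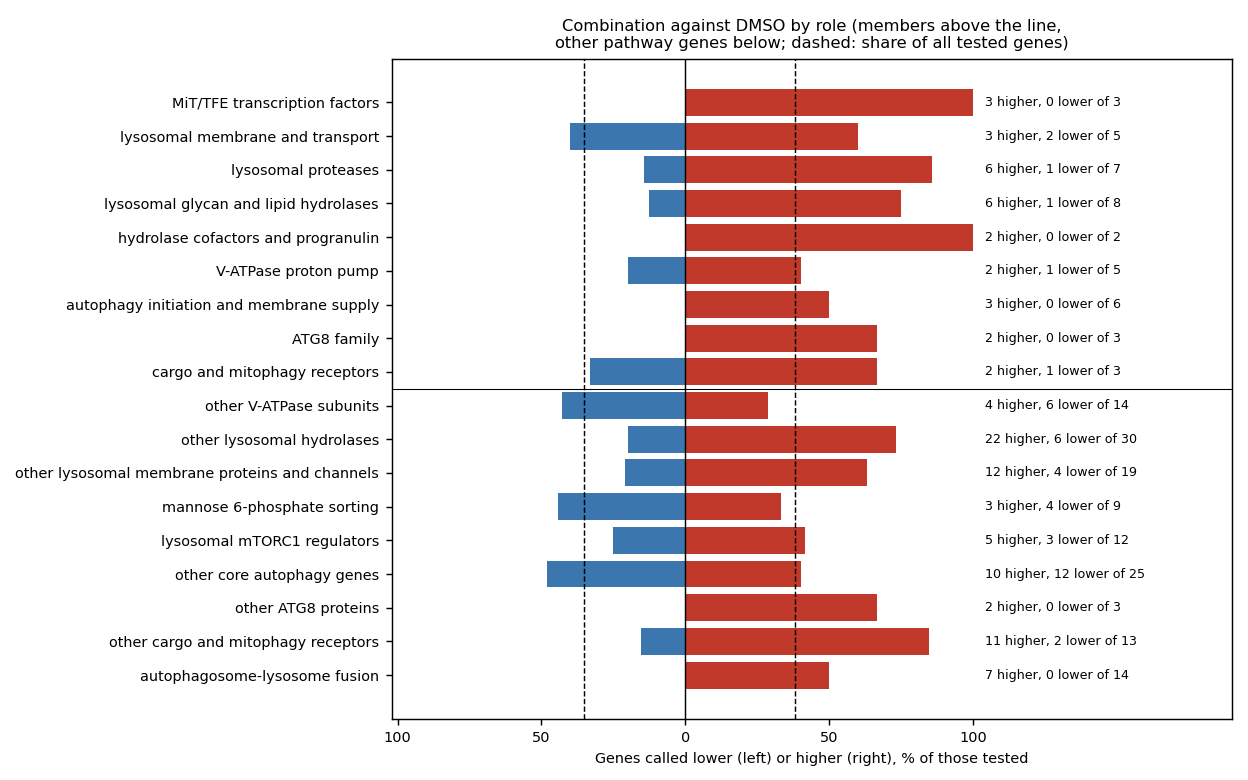
Percent of tested genes called higher (right, red) or lower (left, blue) in the combination against DMSO, by role, for the 42 members and the 139 other pathway genes; dashed lines mark the 38.0% and 35.2% of all tested genes. Lysosomal proteases (6 of 7 higher) and other lysosomal hydrolases (22 of 30 higher) are among the roles that exceed the dashed line on the right. Roles that exceed the one on the left are other core autophagy genes (12 of 25 lower), mannose 6-phosphate sorting (4 of 9) and other V-ATPase subunits (6 of 14). Lysosomal membrane and transport genes (2 of 5 lower) also exceed it.

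GABARAPL1 and MAP1LC3B have near-identical copies elsewhere in the genome, and the treatment of reads that match more than 1 place is not given in the sources used here, so their counts are uncertain to that extent. Several members share their locus with another gene, and the strand setting of the counting is likewise not given. Of the 42 members, 29 overlap another listed gene, 21 of them on the opposite strand, and for 8 the overlapping genes together averaged over 10% of the counts of the member (MCOLN1, MAP1LC3B, SQSTM1, NPC1, NPC2, SGSH, WIPI1 and GLB1). The neighbor of MAP1LC3B, FBXO31, had a combination log2 fold change of -0.10 and that of SQSTM1, MGAT4B, had 0.20, against 1.30 and 1.22 for the members. The neighbor of NPC1, RMC1, fell by 0.87 and that of MCOLN1, PNPLA6, had 0.17. PNPLA6 lies on the same strand as MCOLN1, so a strand setting would not separate them, and averaged 1635 counts against 349 for MCOLN1. ARSG, on the strand opposite WIPI1, averaged 192 counts against 204 for WIPI1 and fell by 0.74 in the combination. SLC26A11, which overlaps SGSH, rose by 1.06 while SGSH was not called.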

How the data were processed

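RNA-seq of C4.2B cells was analysed in 12 libraries (4 arms, 3 each). The authors aligned reads to hg38 with STAR, counted them per gene with HTSeq and deposited raw counts, and also deposited a signal, the counts normalized by DESeq2 size factors. Versions, annotation release and strand setting are not given in the sources used here. The normalized values equalled counts over 1 factor per library (relative tolerance 1e-06). TPM was computed from the counts and the deposited gene lengths.

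Raw counts were fitted in edgeR 4.0.16 (R 4.3.3) with TMM scaling, filterByExpr (minimum count 10, minimum total 15), 1 mean per arm over all 12 libraries, quasi-likelihood F tests (two-sided) and Benjamini-Hochberg adjustment over 16646 genes at 0.05. Tested on simulated data, the fit called 199 of 200 genes set at a fold of 2 for the combination against DMSO, with 11 of the unchanged genes called, and 186 of 200 for the interaction, with 10, among 16062 genes. Only the combination was changed there, in few genes and equally up and down, with the same relative spread for every gene. The simulation thus cannot test the scaling or an uneven spread between libraries. The members and lists, the other pathway genes and the motifs included, were chosen with earlier results of these data known. Values per library were given for the MiT/TFE, ATG8 and receptor genes and for the 3 largest and 3 smallest called changes per treated arm and for the interaction, and the 3 largest and 3 smallest of the other pathway genes were named, except 1 that is not reported here. Overlapping genes and further members were named after their values were seen. Alternatives were DESeq2 1.42.0, other scalings and filters, fits of only the arms compared, leaving out each library in turn, and a replicate block. Figures were drawn with matplotlib.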

Additional observations from a re-analysis of the deposited data

Results flagged for a closer look

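For 18 members the effect of AKTi differed between cells without and with EZH2i, by edgeR's quasi-likelihood test of the interaction (adjusted p under 0.05 over all tested genes). Each value is the log2 change from EZH2i to the combination minus that from DMSO to AKTi. Among the hydrolases and their partners it was -0.74 for GAA, -0.64 for GRN, -0.58 for SGSH, -0.53 for GLA, -0.47 for NEU1, -0.45 for TPP1 and -0.43 for CTSD. It was -0.36 for SMPD1, -0.34 for CTSZ, -0.32 for CTSA and -0.25 for CTSH. Among the autophagy initiation genes it was -0.61 for ULK1 and -0.51 for ATG2A. Among the proton pump subunits it was -0.42 for ATP6V1A, -0.38 for ATP6AP1 and -0.24 for ATP6V0D1. The positive values were 0.40 for UVRAG and 0.47 for CTSL. The calls of ATP6V0D1, CTSA, CTSH, GLA and UVRAG were each lost without at least 1 library. For ATP6V0D1 these were AKTi B or C, EZH2i C and combination C, for CTSA DMSO A or B, AKTi B or C, EZH2i C and combination C, and for CTSH DMSO B and AKTi B. Their highest adjusted p was 0.15, 0.11 and 0.064.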

How the results depend on the processing

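Scaling by total count or by upper quartile raised the median change of the members, to 0.23 and 0.23 with AKTi, 0.53 and 0.51 with EZH2i, 0.74 and 0.72 in the combination, 0.56 and 0.55 from AKTi to the combination, 0.12 and 0.13 from EZH2i to the combination and 0.36 and 0.33 from AKTi to EZH2i. The same scalings raised the median of all genes in the combination from 0.062 to 0.26 and 0.25, and turned that of the combination against EZH2i to 0.042 and 0.055 and that of CTSH in the combination to 0.022 and 0.0089. Members lower with EZH2i were 3 under both and with every gene of at least 1 count, members lower from AKTi to the combination were 3 under total count, and members with a positive interaction were 1 under total count and with every gene of at least 1 count. With at least 10 counts in every library the medians were 0.61 in the combination and 0.49 from AKTi to it. With each library left out, the medians were 0.33 to 0.43 with EZH2i, 0.43 to 0.56 in the combination, 0.36 to 0.44 from AKTi to the combination, 0.015 to 0.11 from EZH2i to the combination, 0.21 to 0.27 from AKTi to EZH2i and -0.18 to -0.062 for the interaction, and positive interactions were 1 to 2. The cause was not tested. Of the member calls, 23 of 25 with AKTi, 31 of 38 with EZH2i, 31 of 35 in the combination and 13 of 18 for the interaction held under every setting run. Between treated arms, 25 of 31 held from AKTi to the combination, 20 of 25 from EZH2i to the combination and 22 of 26 from AKTi to EZH2i. Members not called gained a call under at least 1 setting in 6 cases with AKTi, 4 with EZH2i, 7 in the combination, 10 from AKTi to the combination and 2 for the interaction. From EZH2i to the combination there were 6 such cases, and from AKTi to EZH2i 5. DESeq2 called 29 members higher and 6 lower in the combination.

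Same-letter libraries did not deviate together (correlations of -0.058 to 0.069 over 18 pairs, 0 above 0.1), and the main fit did not pair the samples by letter. The labels do not say whether the letters mark a shared day or plate, and these correlations cannot decide it. A replicate block on the letters gave 29 members higher and 6 lower in the combination, and 24 in place of 25 higher from AKTi to the combination, where ATP6V1H was lost. The SE of the combination change was 0.14 for MITF, the member with the lowest level in DMSO, and 0.051 for PSAP, the one with the highest.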

Other observations

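Further roles of the other pathway genes are given by their counts of calls, to be read against the shares of all tested genes, 20.6% higher and 21.9% lower with AKTi, 32.6% and 31.5% with EZH2i, and 38.0% and 35.2% in the combination. Other lysosomal membrane proteins and channels were higher in 7 and lower in 1 of 19 with AKTi, in 12 and 4 with EZH2i and in 12 and 4 in the combination, where their summed level was 1485 ± 36.0 TPM against 800.0 ± 24.1 TPM in DMSO (SD, n = 3). Lysosomal regulators of mTORC1 were higher in 2 and lower in 1 of 12 with AKTi, in 7 and 2 with EZH2i and in 5 and 3 in the combination, where 41.7% and 25% lay near the shares of all tested genes. Other ATG8 genes were scarce, with a summed level of 7.10 ± 0.507 TPM in DMSO and 12.7 ± 2.75 TPM in the combination (SD, n = 3), and 2 of the 3 tested were called higher there. Other V-ATPase subunits had a summed level of 1519 ± 49.9 TPM in DMSO, 1536 ± 52.7 with EZH2i and 1316 ± 22.6 with both agents (SD, n = 3).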
